A study of Ooceraea biroi with 96 samples.

Results

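The genes of chromosome 13 of the clonal raider ant, Ooceraea biroi, were described for their expression in the brains of 96 single ants. A gene was taken as a member where the deposited count table placed it on the 13th of the 14 chromosome sequences and its mean over the 96 libraries was at least 0.5 CPM, the counts of a gene scaled to a common library total. By this rule 344 of the 484 genes listed on the chromosome were members (71.1%), and 69.2% of the genes on the other sequences reached the same level. The members made up 3.61% of the 9524 genes of the series at that level. The members were thus chosen by mean CPM and position, so their level and place are a description and support nothing.

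Ants of 2 clonal lineages, M and B, had been cross-fostered as young larvae among ants of either lineage, so that own genotype and social environment varied separately. Each library came from the whole brain of 1 ant aged 8 days or 1 day. Groups are written as genotype in environment, and all 4 combinations were sampled at both ages. At day 8 these were 14 MinM ants (genotype M among M), 12 MinB ants (genotype M among B), 10 BinM ants (genotype B among M) and 10 BinB ants (genotype B among B). The day 1 ants were 20 MinM, 14 MinB, 9 BinM and 7 BinB ants. Each genotype is 1 clonal lineage, so a genotype difference here is one between these 2 lineages.

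The clonal raider ant has no queens, and its workers lay unfertilised eggs that develop into daughters, which makes nestmates of a lineage genetically close to each other. Rearing ants with another lineage separates what an ant's own genome does to expression (direct genetic effects) from what its nestmates' genomes do (indirect genetic effects). Expression of a gene can differ between lineages through variants next to it or elsewhere in the genome, and genes that share a stretch of chromosome also share linked variants.

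Library totals ranged from 10.7 to 26.96 megacounts (median 16.4). In 8 libraries the log2 values departed further from their group mean than in the rest of the same age, by more than 3 scaled median absolute deviations. These were MinM replicates 6 and 9, MinB replicates 8 and 11 and BinM replicate 2 at day 8, and MinM replicate 16, MinB replicate 12 and BinB replicate 9 at day 1. They were kept, and values without them are given where a result rests on them. No product names were used here, so functions of members are not stated and the labelled tissue was not checked against cell type markers. Brains were sequenced in bulk, so a lower level cannot be told apart between fewer expressing cells and less RNA per cell.

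Of the 344 members, 324 were protein-coding, 17 were long noncoding RNA (lncRNA) genes, 2 were rRNA genes and 1 was listed as misc_RNA. They lay on both strands in similar number, with 169 on the plus and 175 on the minus strand. The span of 121 members (35.2%) overlapped another gene, against 40.7% of the other genes at that level, and in 30 of the 121 the overlap included a gene on the same strand. Reads in such overlaps may have been assigned to either gene, since no source used here gives the strand setting. The median member spanned 5.38 kb and had 26.9 CPM, against 4.86 kb and 32.7 CPM for the other genes.

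The member with the highest CPM was LOC105286298 (chromosome 13, start 8818019 to end 8847765, minus strand, positions being written in this order throughout), with 2854 CPM on average, or 564 CPM per kb of exon. Among the 5 members with the highest CPM, the only ones set side by side per kb of exon, LOC105286549 followed with 322, LOC105283930 with 238 and LOC105281865 with 231, and LOC105286400 reached 28.8. Just inside the threshold lay LOC105283886 (0.584 CPM) and the lncRNA gene LOC105286258 (0.534 CPM). Just outside it lay LOC105277289 (0.473 CPM) and the lncRNA gene LOC105283090 (0.406 CPM). In a single genotype, 2 members averaged less than 0.5 CPM, LOC105283886 in genotype M and LOC113563188 in genotype B. These 2 reached the threshold through the genotype in which they were high and had to differ between genotypes. By age, 3 members averaged less than 0.5 CPM at day 8 (LOC105285949, LOC105287314 and LOC105286255) and 2 at day 1 (LOC105283886 and LOC105286258). Each of these reached the threshold through the other age. All 344 members passed the count filter at day 1, and 341 passed it at day 8. Together the members took a nearly constant share of each library, with group means of 2.51% in MinM, 2.53% in MinB, 2.57% in BinM and 2.55% in BinB brains at day 8. The day 1 means were 2.45% in MinM, 2.48% in MinB, 2.44% in BinM and 2.45% in BinB brains.

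The first comparison asked how the ant's own genotype went with the expression of these genes. Between M and B brains, 64 of 341 members (18.8%) differed at day 8, where 8.45% of all genes tested were called. Of these, 28 were higher in M (8.21%, against 4.16% of all genes) and 36 were lower (10.6%, against 4.29%). At day 1, 85 of 344 members (24.7%) differed, where 14.8% of all genes were called. Here 43 were higher in M (12.5%, against 7.24%) and 42 were lower (12.2%, against 7.52%). Calls are those with an adjusted p under 0.05 in edgeR's quasi-likelihood F test, with Benjamini-Hochberg adjustment over all genes tested at that age. A call at each age with equal sign, written as a shared call below, was made for 40 members (11.7%) and for 3.77% of all genes tested at both ages. The counts at day 8, at day 1 and at both ages include LOC113563188 and LOC105283886, which had to differ by the membership rule. In M, 21 of the 40 were higher (all genes 1.75%) and 19 were lower (all genes 2.02%), and no member was called at both ages with opposite signs. The excess over the other chromosomes was among the reasons the chromosome was described, so these shares are given without a test. On the other 13 chromosomes the share called at both ages ranged from 1.58% to 6.53%.

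The 2 ages share no library, and neither do the 2 environments within an age. Genotype could therefore be compared in 4 separate sets of ants. MinM and BinM differed in 32 members (9.38%) at day 8, where 3.53% of all genes were called, and in 36 (10.5%) at day 1, where 3.54% were. MinB and BinB differed in 23 members (6.74%) at day 8, where 3.03% of all genes were called, and in 62 (18%) at day 1, where 9.95% were. All 40 members with shared calls had 1 sign in all 4 comparisons, which the calls themselves favour. Of the 40, 11 were called in all 4 comparisons, 7 in 3, 11 in 2, 9 in 1, and 2 (LOC105281970 and LOC113563257) in none. Most differences were small. Fold changes averaged over the ages were under 1.5 for 23 of the 40, between 1.5 and 2 for 11 and at least 2 for 6. These 6 were 15% of the 40, where 25.9% of all genes with a shared call reached 2-fold. The median absolute log2 fold change was 0.47 over the 40 and 0.53 over all genes with a shared call. Of the 6, 4 exceeded 4-fold, among them LOC113563188 and LOC105283886, which had to differ by the membership rule. Across the 341 members, log2 fold changes at day 8 and day 1 had a Pearson correlation of 0.926, which was 0.493 over the 337 members left after those 4 were taken out (Spearman 0.307 over all). Points in this correlation share gene length and mean level, and it is given as a description.

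**Figure D1:**
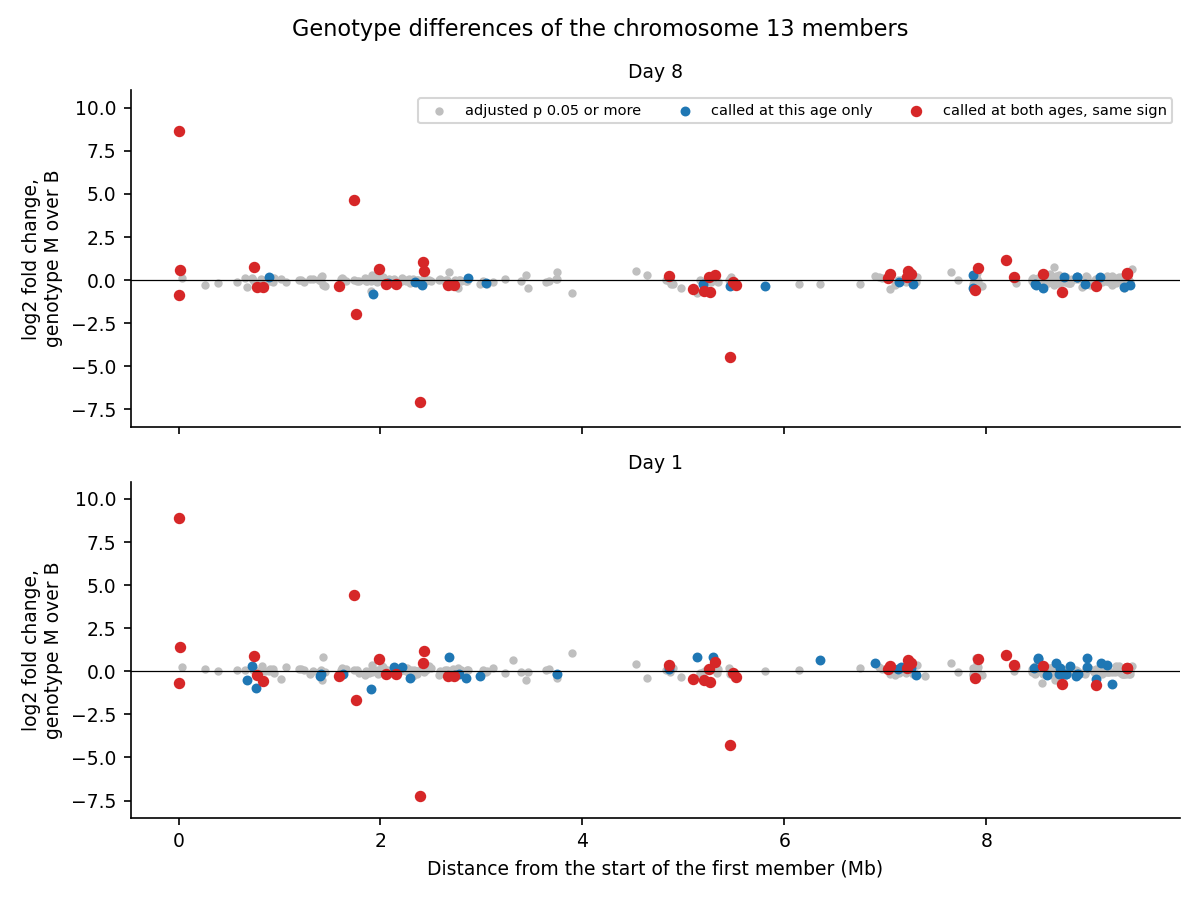
Log2 fold change of genotype M over B for each member (points) against distance in Mb from the start of the first member, at day 8 (top) and day 1 (bottom). Red points are the 40 members with a shared call, blue points were called at that age only, and grey points had an adjusted p of 0.05 or more; 4 red points lie beyond 4-fold at both ages, and the fitted values of LOC113563188 and LOC105283886 depend on counts at or near 0.

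A pair of members had reads almost exclusively from one genotype. LOC113563188 (lncRNA, 13, 26920 to 29494, minus strand) was read in M brains only, apart from 1 count. At day 8 it had a lowest, median and highest level of 0.0663, 2.99 and 6.29 CPM in M brains (n = 26), against 0 counts in all 20 B brains. At day 1 it had 1.76, 4.37 and 8.91 CPM in M brains (n = 34), against 1 count in 16 B brains. The genotypes did not overlap at either age, and the M brain with the lowest level was MinB replicate 8 of day 8, one of the 8 libraries that stood apart. Against a floor of 3 counts over the B libraries, the level at day 8 was at least 346-fold higher in M, and the exact 95% interval of the ratio, which also takes in the counting error of the M libraries, began at 281. The ratio of summed counts at day 1 was 1269 (exact 95% interval 228 to 50143, counting error only). LOC105283886 (protein-coding, 13, 2411491 to 2417676, plus strand) had the opposite pattern. In M brains it had 2 counts in all at each age, against a lowest, median and highest level of 0.664, 1.51 and 2.59 CPM in B brains at day 8 and 1.01, 1.38 and 2.84 CPM at day 1. Every B brain lay above every M brain at both ages. The M over B ratio of summed counts was 0.00314 at day 8 (exact 95% interval 0.00038 to 0.0114) and 0.00218 at day 1 (0.000263 to 0.00792). Neither gene overlaps another gene of the table.

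The largest difference among well-expressed members was in LOC113563300 (protein-coding, 13, 1762323 to 1767441, minus strand). At day 8 its lowest, median and highest levels were 177, 438 and 556 CPM in M brains, against 9.55, 17.5 and 23.1 CPM in B brains. At day 1 they were 191, 350 and 488 CPM in M brains, against 10.6, 14.1 and 47.6 CPM in B brains. The genotypes stood apart at both ages, and the highest B value belonged to BinB replicate 9 of day 1. The log2 fold change was 4.63 at day 8 (SE 0.11, edgeR adjusted p = 1.08e-33) and 4.41 at day 1 (SE 0.14, edgeR adjusted p = 7.15e-31). By environment, it averaged 411 ± 55.4 CPM in MinM and 436 ± 112 CPM in MinB brains, and 16.6 ± 3.61 CPM in BinM and 17.6 ± 3.59 CPM in BinB brains, at day 8 (SD).

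The next member on the chromosome, LOC105283927 (protein-coding, 13, 1777882 to 1782533), lies 10.4 kb further on the same strand and was lower in M. At day 8 its lowest, median and highest levels were 48.2, 123 and 225 CPM in M brains, against 141, 502 and 617 CPM in B brains. In day 1 brains they were 71.8, 111 and 239 CPM in M brains, against 169, 416 and 492.9 CPM in B brains. The genotypes overlapped at both ages, and the lowest B values came from BinM replicate 2 of day 8 and BinB replicate 9 of day 1, both libraries that stood apart. It fell by 1.98 on the log2 scale at day 8 (SE 0.12, edgeR adjusted p = 7.99e-18) and by 1.64 at day 1 (SE 0.12, edgeR adjusted p = 2.67e-16). The summed level of the neighbouring pair, looked at after its values were seen, was 545 ± 109 CPM in M and 506 ± 119 CPM in B at day 8, and 475 ± 81.4 CPM in M and 402 ± 82.0 CPM in B at day 1 (SD). LOC113563300 took 77.5% of this sum in M and 3.53% in B at day 8, and 74.4% in M and 4.72% in B at day 1. The spans do not overlap, but whether reads of the 2 genes can be told apart was not tested, and no source used here says how reads with several alignments were counted.

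LOC113563270 (protein-coding, 13, 5481763 to 5484393, minus strand) was lower in M without overlap between genotypes. At day 8 its lowest, median and highest levels were 0.308, 1.12 and 3.04 CPM in M brains, against 18.7, 27.5 and 46.3 CPM in B brains. At day 1 they were 0.625, 1.30 and 4.15 CPM in M brains, against 16.2, 28.01 and 34.4 CPM in B brains. Its span lies inside that of LOC105281902 (13, 5481763 to 5487346) on the same strand, so the division of reads between the 2 genes is uncertain. They share their lowest coordinate, which is the transcript end on the minus strand. The log2 fold change was -4.44 at day 8 (SE 0.16, edgeR adjusted p = 3.78e-27) and -4.30 at day 1 (SE 0.13, edgeR adjusted p = 8.3e-32). LOC105281902 itself had log2 fold changes of 0.07 at day 8 (SE 0.11) and -0.15 at day 1 (SE 0.09) and was not called at either age.

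LOC105286280 (lncRNA, 13, 8775335 to 8779965, plus strand) showed a smaller difference and was called in all 4 sets of ants. Its lowest, median and highest levels at day 8 were 16.04, 22.9 and 37.9 CPM in M brains, against 29.5, 38.2 and 50.8 CPM in B brains. In day 1 brains they were 22.7, 32.8 and 43.8 CPM in M brains, against 44.4, 52.9 and 76.3 CPM in B brains. The genotypes overlapped at day 8 and stood apart at day 1. It fell by 0.70 on the log2 scale at day 8 (SE 0.07, edgeR adjusted p = 2.71e-10) and by 0.73 at day 1 (SE 0.06, edgeR adjusted p = 4.54e-13), and it overlaps LOC105286279 on the opposite strand, which was called at neither age.

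**Figure D2:**
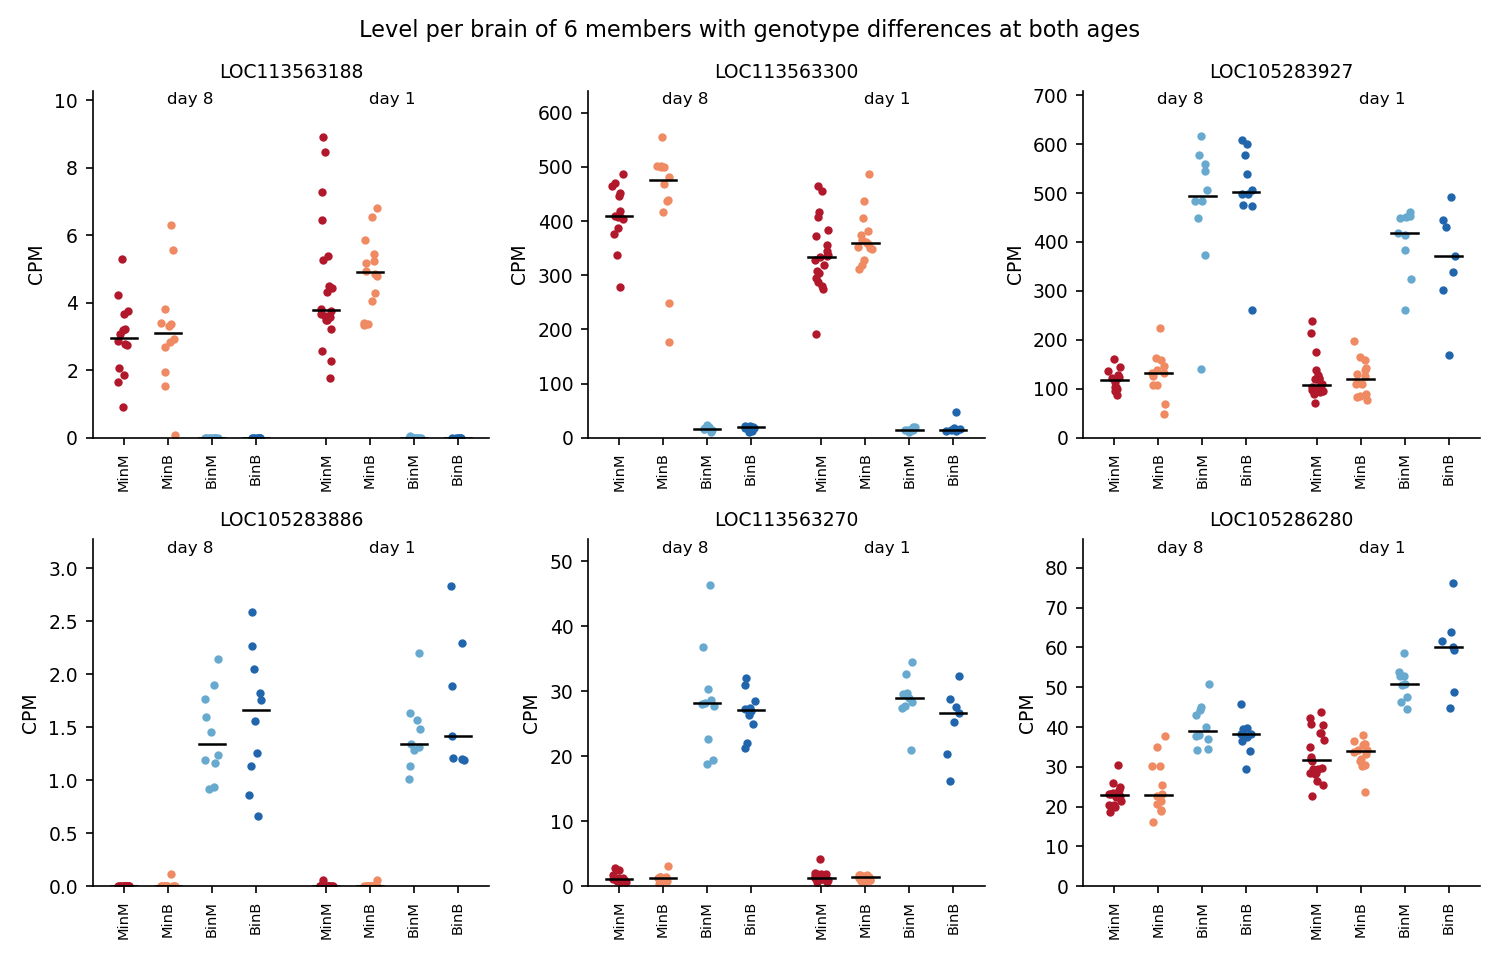
CPM per brain (points) and group median (bars) for 6 members, by genotype in environment, at day 8 (left of each panel) and day 1 (right). In 4 of the 6 panels (LOC113563188, LOC113563300, LOC105283886 and LOC113563270) genotype M and genotype B brains do not overlap at either age, and within a genotype the ranges of the 2 environments overlap. LOC113563188 and LOC105283886 had to differ between genotypes by the membership rule.

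The remaining members among the 10 highest were between 1.51-fold and 2.07-fold higher in M on average over the ages. LOC105281863 (13, 8216014 to 8219745), a member of low level, averaged 1.67 ± 0.47 CPM in M and 0.745 ± 0.283 CPM in B at day 8 and 1.42 ± 0.52 CPM in M and 0.738 ± 0.388 CPM in B at day 1 (SD). Its log2 fold change was 1.17 at day 8 and 0.93 at day 1, and the genotypes overlapped. LOC105277288 (13, 7937561 to 7940191) had the highest level of this set, with 148 ± 31.4 CPM in M and 92.3 ± 13.2 CPM in B at day 8 and 178 ± 34.8 CPM in M and 108 ± 17.5 CPM in B at day 1. It was called in all 4 sets of ants, as was LOC105280039 (13, 2008214 to 2018468), with log2 fold changes of 0.66 at day 8 and 0.74 at day 1. LOC105287214, LOC113563185, LOC105283888, LOC105285107 and LOC113563252 completed the set. LOC105285107 averaged 19.95 ± 7.9 CPM in M and 13.6 ± 4.44 CPM in B at day 8, against 13.6 ± 9.64 CPM in M and 5.41 ± 5.28 CPM in B at day 1. Its spread between brains was wide at both ages. LOC105283888 at day 8 had a log2 fold change of 0.52 that lost its call when any of 22 of the 46 libraries was left out, with values between 0.48 and 0.56.

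Among the 10 lowest, the other 6 were LOC113563257, LOC113563186, LOC105286214, LOC105285407, LOC105277286 and LOC113563178. LOC105285407 (13, 5221471 to 5235119) averaged 30.04 ± 5.56 CPM in M and 46.7 ± 11.1 CPM in B at day 8, and 63.2 ± 13.4 CPM in M and 87.8 ± 16.2 CPM in B at day 1 (SD), and it was called in all 4 sets of ants. LOC105286214 (13, 9111527 to 9116828) fell by 0.37 on the log2 scale at day 8 and by 0.80 at day 1. The first gene of the chromosome, the lncRNA gene LOC113563257, fell by 0.89 at day 8 and by 0.69 at day 1, and its day 1 call was lost without BinB replicate 6 or without BinB replicate 7. LOC113563178 fell by 0.43 at day 1, a call lost without BinM replicate 5, 6 or 10 or BinB replicate 1 or 6, with values as small as -0.33.

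By class, 5 of the 17 lncRNA members (29.4%) were called at both ages, against 6.52% of all lncRNA genes tested. Of the protein-coding members 35 of 321 (10.9%) were, against 3.64% of all protein-coding genes tested. The 5 include LOC113563188 and the 35 include LOC105283886, which both had to differ by the membership rule. Of the 40, 12 overlapped another gene and 28 did not, and of the 28 without overlap 15 were higher and 13 lower in M. Of the members named for genotype, LOC105287214, LOC105283888, LOC105281901, LOC105286280 and LOC105286214 overlapped a gene on the opposite strand and LOC113563270 one on the same strand. Both genes just below the CPM threshold were also called at both ages. LOC105283090 was lower in M, with log2 fold changes of -1.53 at day 8 and -2.02 at day 1, and LOC105277289 was higher, with 1.62 at day 8 and 1.01 at day 1.

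Along the chromosome, members were unevenly spread. Of the 344, 141 began beyond 8 Mb, while the last one ended at 9.47 Mb. The widest stretch without a member was 0.607 Mb long, from 3943011 to 4550116. The 40 shared calls were also uneven, but in another way. Before 8 Mb, 33 of 201 members (16.4%) had a shared call, and beyond it 7 of 140 (5%), where 3.77% of all genes did. This boundary was chosen after the counts were seen. The 33 include LOC113563188 and LOC105283886, which had to differ by the membership rule. The median level was 26.3 CPM before 8 Mb and 27.8 CPM beyond it, and the median SE of the genotype log2 fold change was 0.07 in both stretches at day 8 and at day 1 it was 0.08 before 8 Mb and 0.06 beyond it. Overlap with another gene differed more, at 24.6% of members before 8 Mb and 50.4% beyond it. Whether overlap plays a part in the difference was not tested.

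In windows of 1 Mb, the highest share was in the sixth (5 to 6 Mb), with 8 of 24 members (33.3%), of which 2 were higher and 6 lower in M. Over all genes, 3.77% had a shared call. In the sixth window 11 of 24 members (45.8%) were called at day 8, where 8.45% of all genes were. At day 1, 10 of 24 (41.7%) were called there, where 14.8% of all genes were. In the eighth window the direction was the other way, with 7 of 31 members called at both ages (22.6%), 6 higher and 1 lower. The first window had 6 of 24 (25%), 3 in each direction, and the third 8 of 56 (14.3%). Those of the first window include LOC113563188 and those of the third LOC105283886, which both had to differ by the membership rule. No shared call was made in the fourth window, among 15 members, or in the seventh, among 6. The sign therefore differed between stretches, and median log2 fold changes per window stayed small, from -0.09 to 0.05 at day 8 and from -0.07 to 0.22 at day 1.

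**Figure D3:**
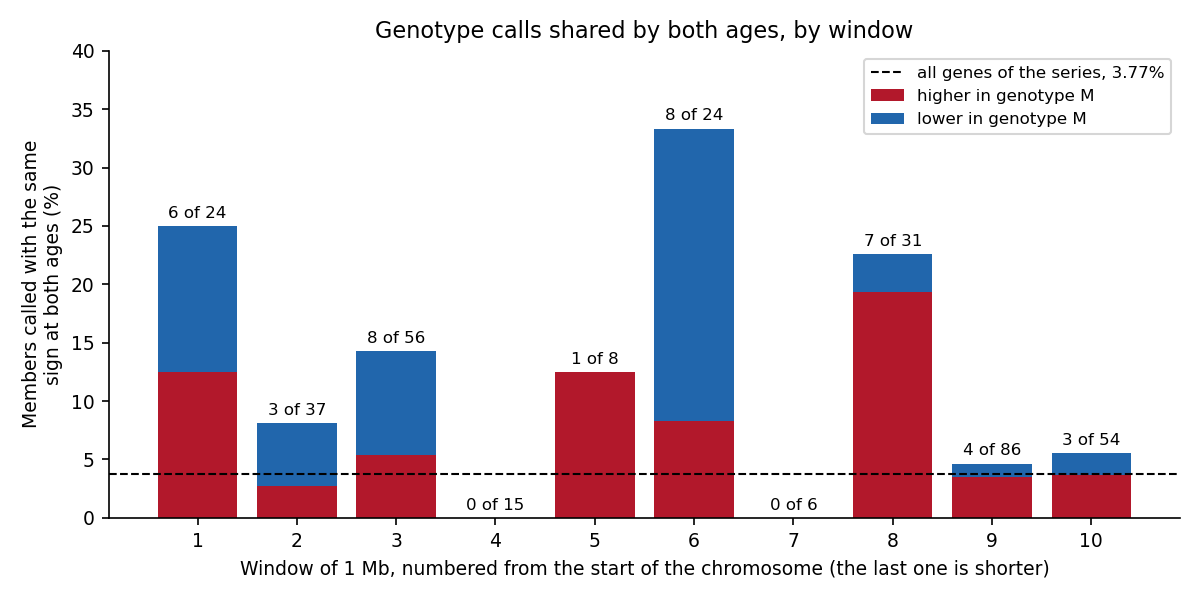
Percentage of members with a shared call in each window of 1 Mb along the chromosome, split into those higher (red) and lower (blue) in genotype M, with counts above the bars. The dashed line is the percentage over all genes of the series tested at both ages, 3.77%. The sixth window reaches 33.3% and the last 2 windows lie at 4.65% and 5.56%. The first window includes LOC113563188 and the third LOC105283886, which both had to differ by the membership rule.

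Neighbouring members were both called in 9 pairs, 6 with the same sign and 3 with opposite signs. A pair of each kind includes LOC113563188, which had to differ by the membership rule. The longest run with one sign held 3 members higher in M within 33.3 kb (13, 7240449 to 7273759): LOC105281970, LOC113563252 and LOC105286912. LOC105286912 averaged 22.8 ± 5.15 CPM in M and 17.8 ± 2.28 CPM in B at day 8, and 25.6 ± 3.67 CPM in M and 18.5 ± 4.18 CPM in B at day 1 (SD). The other two had log2 fold changes of 0.18 and 0.17 for LOC105281970 and 0.53 and 0.66 for LOC113563252 at day 8 and day 1. Without the 8 libraries that stood apart, LOC105281970 was no longer called at day 8 (log2 fold change 0.15). Runs of 2 members higher in M were LOC113563188 with LOC105285107 (10.6 kb), LOC113563185 with LOC105283888 (25.2 kb) and LOC105280615 with LOC105280614 (22.3 kb). LOC105280615 had one of the smallest called differences, 276 ± 15.9 CPM in M and 257 ± 19.8 CPM in B at day 8. One run of 2 was lower in M, LOC105281901 with LOC105281899 (30.1 kb). LOC105281901 averaged 127 ± 6.79 CPM in M and 135 ± 7.49 CPM in B at day 8, a call lost without MinB replicate 3 or 6, BinM replicate 8 or 9 or BinB replicate 10. Over all libraries left out, its log2 value stayed between -0.09 and -0.08. The pairs with opposite signs were LOC113563257 with LOC113563188, LOC113563300 with LOC105283927, and LOC105285406 with LOC113563186.

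The second comparison asked whether the lineage of the social environment went with expression. No member was called between environments M and B at day 8 (all genes 0%) or at day 1 (all genes 0.0102%), in edgeR's test over 341 and 344 members. At an unadjusted p under 0.05 there were 6 members at day 8 (1.76%, against 3.32% of all genes) and 28 at day 1 (8.14%, against 6.66%). DESeq2 called 1 member at day 1 and none at day 8, and limma-voom called none. The median absolute log2 fold change of members was 0.04 at day 8 and 0.07 at day 1, where for genotype it was 0.11 and 0.13. The 95% interval lay within 1.5-fold in either direction for 311 members at day 8 (91.2%) and for 307 at day 1 (89.2%), and within 2-fold for 330 (96.8%) and 335 (97.4%). For the other members a difference of that size could not be told from none.

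At day 1 LOC105283937 (13, 1437845 to 1455289) had the lowest p and is also the member DESeq2 called. In environment M its lowest, median and highest levels were 0, 0.453 and 2.88 CPM in MinM and 0, 0.347 and 1.18 CPM in BinM, against 0.0422, 0.689 and 10.3 CPM in MinB and 0.0718, 0.413 and 28.1 CPM in BinB. The groups overlapped almost entirely, and the medians were close to each other. The log2 fold change was -2.39 (SE 0.58, edgeR adjusted p = 0.168), and without BinB replicate 2, the highest brain, it was -1.24 (edgeR adjusted p = 0.71). LOC105287037 followed with 0.79 (edgeR adjusted p = 0.606) and LOC105283947 with -0.45 (edgeR adjusted p = 0.694), which was -0.11 without BinB replicate 9. At day 8 the 3 lowest p were those of LOC105283883 (0.11), LOC105286355 (0.14) and LOC105279584 (0.09), each with an edgeR adjusted p of 0.998.

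**Figure D4:**
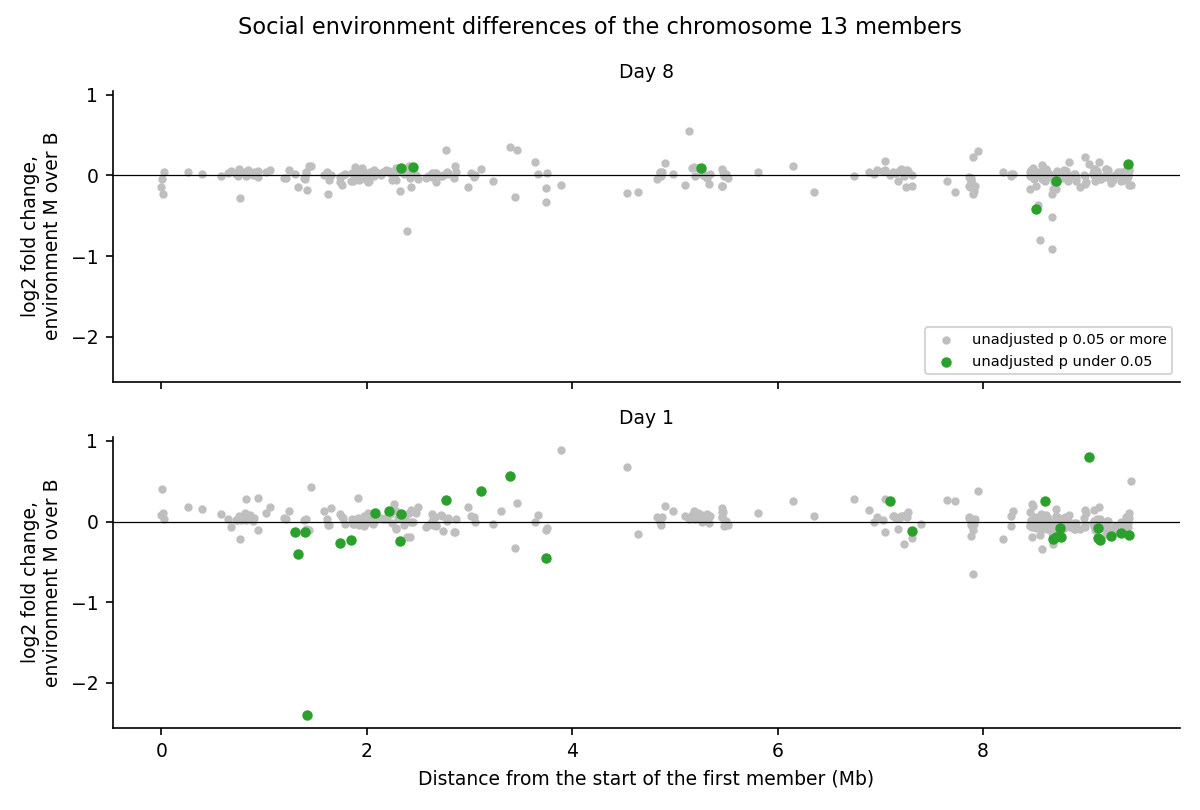
Log2 fold change of environment M over B for each member (points) against distance in Mb from the start of the first member, at day 8 (top) and day 1 (bottom). Green points have an unadjusted p under 0.05 (6 at day 8 and 28 at day 1), none was called after adjustment, and the lowest point at day 1 is LOC105283937 at -2.39.

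Interaction between genotype and environment asked whether M and B brains differed in how they went with their surroundings. Again no member was called at day 8 (all genes 0%) or at day 1 (all genes 0%), by edgeR, DESeq2 or limma-voom. At an unadjusted p under 0.05 there were 8 members at day 8 (2.35%, against 2.35% of all genes) and 26 at day 1 (7.56%, against 6.24%). The lowest p at day 8 were those of LOC109610840 (log2 difference -0.46), LOC105277285 (-0.41) and LOC105280036 (-0.14), with edgeR adjusted p of 1.0. At day 1 they were those of LOC105279592 (0.28), LOC105283947 (0.87) and LOC105280890 (0.25), with edgeR adjusted p of 0.723. Without BinB replicate 9 the day 1 values were 0.19, 0.18 and 0.15. Intervals were wider here, and 248 members at day 8 (72.7%) and 228 at day 1 (66.3%) had one within 1.5-fold.

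Age was the factor with most calls. Between day 8 and day 1, 248 of 344 members (72.1%) differed in edgeR's test, where 73.1% of all genes were called. The members' share is near that of all genes. In direction they were less even, with 154 higher (44.8%, against 37.6% of all genes) and 94 lower at day 8 (27.3%, against 35.4%). Members that reached the threshold through a single age had to have the higher mean CPM at that age. These were LOC105285949, LOC105287314 and LOC105286255 for day 1, and LOC105283886 and LOC105286258 for day 8. The higher and lower counts by age, here and below, are not given without them. The median log2 fold change was 0.08 over members and 0.01 over all genes. On the other 13 chromosomes it ranged from -0.04 to 0.07. With library totals in place of TMM scaling, 199 members were higher and 53 lower, but the median of all genes then moved to 0.14. The shares of all genes called higher and lower under that scaling are not set beside these counts. Within genotype M, 213 members were called (61.9%, against 67.2% of all genes), and within genotype B also 213 (61.9%, against 62.9%). In both genotypes with the same sign 160 were called (46.5%, against 51.2% of all genes), and none with opposite signs. The 2 ages carry different forms of title in the labels. If their libraries were handled separately, which the titles do not say, age and handling cannot be told apart.

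Changes with age were mostly modest, with 8 members at least 2-fold higher and 8 at least 2-fold lower, or 6.45% of called members against 13.4% of all called genes. Some of the 8 falls were in members under 1 CPM. LOC105285949, LOC105287314 and LOC105286255 had to be lower in mean CPM at day 8 by the membership rule, and LOC105283886 and LOC105286258 higher. Among members of at least 1 CPM, LOC105286221 had the second highest log2 fold change. Its lowest, median and highest levels were 5.57, 9.49 and 12.04 CPM at day 8 (n = 46), against 2.10, 3.71 and 7.35 CPM at day 1 (n = 50). The ages overlapped, and the log2 fold change was 1.40 (SE 0.07, edgeR adjusted p = 6.01e-34). LOC105286220, LOC105286211 and LOC105286216 rose by 1.13, 1.27 and 1.22 on the same scale. LOC105286211, LOC105286221 and LOC105286220 lie close to each other on the minus strand (13, 8476261 to 8514603). LOC105286221 and LOC105286220 both overlap LOC105286222 on the opposite strand, and LOC105286216 overlaps LOC105286215 and LOC105286214 there. LOC113563324 had the highest fitted value, 2.26 (SE 0.41, edgeR adjusted p = 7.9e-07), but its median was 1.15 CPM at day 8 and 0.377 CPM at day 1, and MinB replicate 1 and BinM replicate 2 of day 8 reached 43.8 and 32.3 CPM.

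The strongest fall among members of at least 1 CPM was in LOC105287071 (13, 1036962 to 1078676, plus strand). It had 174, 217 and 271 CPM at day 8, against 253, 488 and 1371 CPM at day 1, as lowest, median and highest level. Brains at day 1 varied far more than those at day 8. It fell by 1.43 on the log2 scale (SE 0.09, edgeR adjusted p = 2.13e-25). LOC105280045 had 34.2, 48.4 and 89.6 CPM at day 8, against 75.8, 122 and 165 CPM at day 1, and fell by 1.30 (SE 0.06, edgeR adjusted p = 3.07e-35). LOC105286232, LOC105286251 and LOC105285407 fell by 1.07, 1.03 and 0.99. LOC105285407 was thus lower both at day 8 and in genotype M. The lowest point of the chromosome, -2.96, was LOC105286255, which averaged 0.894 CPM and is named here because it stands out in the plot of age differences. LOC105286255 averaged less than 0.5 CPM at day 8. It thus reached the threshold through day 1 and had to be lower at day 8 by the membership rule. By window, median age differences ranged from -0.07 (0 to 1 Mb) to 0.13 (4 to 5 Mb, 8 members). Beyond 8 Mb, 72 of 141 members were called higher and 39 lower at day 8, and before it 82 of 203 were higher and 55 lower. Over all genes 37.6% were higher and 35.4% lower.

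**Figure D5:**
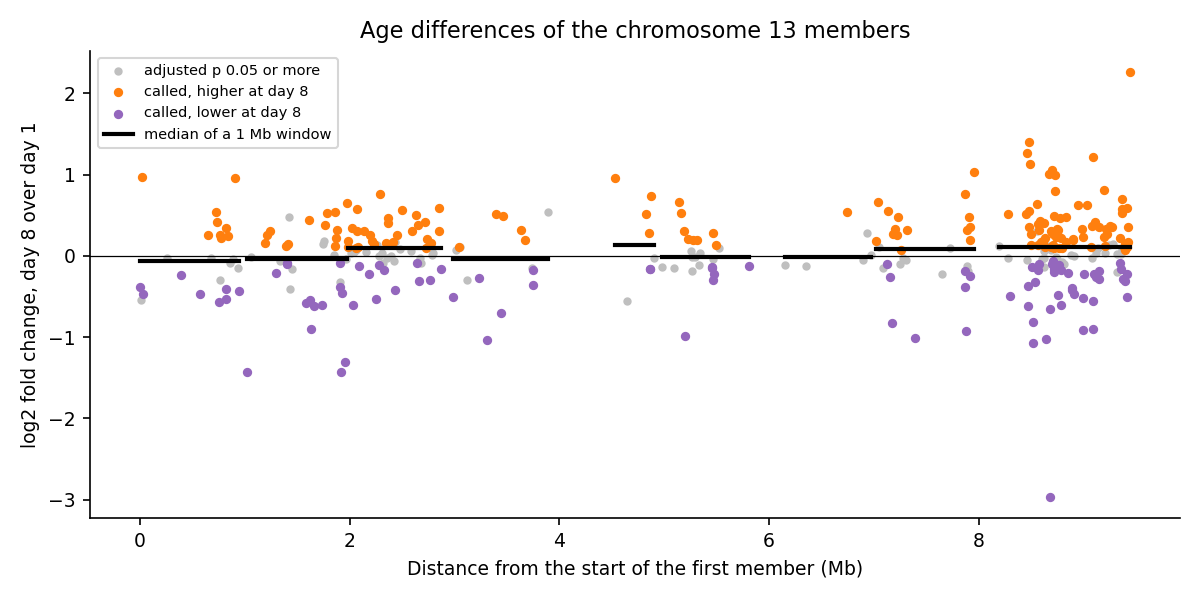
Log2 fold change of day 8 over day 1 for each member (points) against distance in Mb from the start of the first member, with the median of each 1 Mb window as a black line. Orange points (154) were called higher and purple points (94) lower at day 8. Window medians stay between -0.07 and 0.13. The lowest point, LOC105286255, had to be lower at day 8 by the membership rule. In mean CPM, so did LOC105285949 and LOC105287314, while LOC105283886 and LOC105286258 had to be higher.

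Last, the genotype difference was compared between ages. In the fit of all 8 groups, 28 of 344 members (8.14%) had a genotype difference that changed with age, where 6.39% of all genes did. In 14 of them (4.07%, all genes 3.85%) the M minus B difference was higher at day 8, and in 14 (4.07%, all genes 2.55%) it was lower. This count rested largely on 1 library. Without BinB replicate 9 of day 1 it was 5 (all genes 1.64%), and without the 8 libraries that stood apart it was 4 (all genes 1.00%). All 28 kept their sign in both settings, and the count over all genes fell too, from 643 to 166 and 101. Of the 28, 5 had a genotype call only at day 8, 15 only at day 1, 3 at each age and 5 at no age, and in 22 the 2 ages had opposite signs. LOC105286301 (13, 8909777 to 8916441) had the lowest p, with an M over B log2 fold change of 0.11 at day 8 and -0.29 at day 1, a difference of 0.39 (SE 0.08, edgeR adjusted p = 0.00372). It remained called without the libraries that stood apart (0.30, edgeR adjusted p = 0.0215), as did LOC105286221 (-0.53 with all libraries and -0.60 without them, edgeR adjusted p = 0.0107). LOC105283951 (0.21), LOC105286282 (0.20) and LOC105286289 (0.33) were no longer called without them (edgeR adjusted p = 0.0525, 0.104 and 0.065).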

How the data were processed

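The deposited file is 1 table of whole-number counts per gene for 96 libraries, with gene positions, and the authors' counts were not normalised. STAR 2.7.8a and featureCounts were the tools used, per the submitters' processing notes. Per the labels' protocols, libraries were made with a stranded mRNA kit. No source used here gives the genome build, the strand setting or the treatment of reads with several alignments. Gene spans equalled those of the Obir_v5.4 annotation for the 482 of 484 chromosome 13 genes found in it, which gave gene classes, and the deposited table gave the coordinates.

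Groups came from the labels. Day 1 replicates carry their title numbers, and day 8 replicates are numbered in accession order. Replicates are single ants, but no source used here says which came from 1 colony, so p-values treat them as independent.

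Tests used edgeR 4.0.16 (R 4.3.3) on the counts of all genes: TMM scaling, filterByExpr with a minimum count of 10, robust quasi-likelihood F tests and Benjamini-Hochberg adjustment. Each age was fitted with its 4 groups (9834 genes at day 1, 9472 at day 8), and age and genotype by age with all 8 (10056 genes). CPM printed for samples are TMM-scaled. Standard errors were derived from the F statistics. Library totals of 10.7 to 26.96 megacounts limit precision for members near 1 CPM, and floors and ratios of counts cover counting error only. The procedure was tested on data drawn with known fold changes.

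Named genes were, for genotype, the 10 highest and 10 lowest of the members called at both ages, runs of neighbours, and members with a mean under 0.1 CPM in M and at least 1 CPM in B, or the reverse. For age they were the 5 highest and 5 lowest called members of at least 1 CPM, and for genotype by age the 5 lowest p. For environment and interaction, averaged over the other factor, they were the 3 lowest p. For level they were the 5 highest members and those next to the threshold. Environment within each genotype was fitted too, and no member was called there. Members and lists were chosen with earlier results of these data known. Alternatives were DESeq2 1.42.0, limma-voom (limma 3.58.1), other scaling, no filter, a 1 CPM membership, members without overlaps, a replicate block, and libraries left out. Lists of gene functions and cell type markers were not used, since no product names were at hand.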

Additional observations from a re-analysis of the deposited data

Results flagged for a closer look

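By Dixon's test, single brains were marked as outliers in 29 of the 224 combinations of a named gene with a group of 4 to 10 ants, over 24 genes. These groups were BinM and BinB only. All groups of genotype M held more than 10 ants and were not examined, so the marks cannot be compared between genotypes. For normally distributed values chance marks about 1 in 20 groups. CPM were not transformed and need not be normal, and the genes of 1 brain are not independent. The number of marks therefore cannot be judged against that rate. The brain BinB replicate 9 of day 1 accounted for many of the marks. It was the highest of its group for LOC105283930 (2684 CPM), LOC105286549 (1189 CPM), LOC105286282 (179.4 CPM), LOC105283947 (90.79 CPM), LOC113563300 (47.62 CPM), LOC105280890 (44.18 CPM), LOC105279592 (23.78 CPM), LOC113563252 (2.73 CPM) and LOC105281863 (2.011 CPM), and the lowest for LOC105281865 (425 CPM) and LOC105279584 (28.8 CPM). BinB replicate 2 of day 1 was the highest for LOC105283937 (28.05 CPM) and LOC105286251 (24.28 CPM).

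Among BinM brains of day 8, replicate 2 was the lowest for LOC105283927 (141.1 CPM) and LOC105285407 (23.74 CPM) and the highest for LOC113563324 (32.31 CPM). Replicate 1 of the same group was the highest for LOC105281865 (1107 CPM) and LOC105286258 (1.308 CPM), and replicate 4 for LOC113563186 (5.725 CPM). Among BinM brains of day 1, replicate 4 was the lowest for LOC113563257 (0.1997 CPM) and the highest for LOC105286282 (128.9 CPM), replicate 3 was the highest for LOC109610840 (68.23 CPM), replicate 9 for LOC105283937 (1.177 CPM) and replicate 8 for LOC113563188 (0.06272 CPM, the single count of that gene in B brains).

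Among BinB brains of day 8, replicate 4 was the lowest for LOC105283927 (261.7 CPM) and LOC105277288 (53.33 CPM). Replicate 10 was the highest for LOC105286912 (24.17 CPM) and LOC105283937 (10.56 CPM), and replicate 7 for LOC105287037 (5.012 CPM).

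In 5 named members the M minus B log2 difference itself differed between day 8 and day 1 in edgeR's interaction test. The difference of differences was 0.213 for LOC105283951, -0.5302 for LOC105286221, 0.202 for LOC105286282, 0.3276 for LOC105286289 and 0.3902 for LOC105286301. Without BinB replicate 9 of day 1, LOC105286282 was no longer called (edgeR adjusted p = 0.0602) and the other 4 were.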

How the results depend on the processing

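Counts of called members changed little under DESeq2 size factors, library totals, no filter, DESeq2, limma-voom, a 1 CPM membership and removal of the 8 libraries that stood apart. Genotype calls ranged from 59 to 70 at day 8 and from 78 to 94 at day 1, shared calls from 37 to 47 and age calls from 238 to 253. Except for genotype by age, the counts of this section are given without the share of all genes called in the same setting. Whether the members' excess over all genes changed cannot be read from them. Of the 40 shared members, 36 to 40 remained called in each setting tried, and all 40 kept their sign in each. Without members that overlap another gene, 42 were called at day 8, as fewer members were counted. For environment at day 1, DESeq2 called 1 member. Without the 8 libraries, genotype by age had 4 calls (all genes 1.00%). The other settings gave 19 (limma-voom, all genes 3.83%) to 36 (DESeq2, all genes 9.13%). The cause of these last 2 changes was not tested, although leaving out BinB replicate 9 of day 1 alone gave 5 genotype by age calls. Leaving out 1 library at a time gave 55 to 65 genotype calls at day 8, 73 to 92 at day 1 and 37 to 42 shared, and 0 for environment and interaction at both ages. For age and genotype by age only the 8 libraries were left out in turn, giving 243 to 255 and 5 to 34. Of 338 values of named genes under these settings, 328 kept their call and sign and 10 lost the call, and none reversed.

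Whether replicate numbers of day 1 pair the ants is not given in the labels. Residuals of same-numbered ants had a median correlation of 0.0473 over 52 pairs (-0.463 to 0.596). For ants of different number it was -0.00298 over 835 pairs (-0.559 to 0.609). With ranges this wide, these values cannot decide whether same-numbered ants belong together. With the number as a replicate block, 71 members were called between genotypes at day 1, where 85 were without it, and 0 for environment and interaction. No paired analysis was possible at day 8 because its titles carry no replicate numbers.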
